A study of Mus musculus with 20 samples.

Results

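The spleens of klotho(-/-) mice, which are klotho-deficient, were compared with the spleens of wild-type littermates on 4 arrays of a DNA chip that carries probes for 200 mouse miRNAs. The groups were klotho(-/-) spleen and wild-type spleen, with 2 arrays each, numbered 1 and 2. All donors were mice of 5 weeks, of a strain not given in the sources used here. The study's methods name the klotho-deficient mice as male and do not state the sex of the wild-type littermates. The study's legend gives the numbers as different individual mice. The 4 arrays are part of 20, which also covered lung, liver, kidney and heart of both genotypes. The members were the 4 spleen arrays with all 200 probes. The deposited values were fluorescence intensities from 1 dye. The chip does not measure klotho mRNA, so klotho itself gave no check of the labels. The klotho(-/-) mouse is a model of early ageing in which lymphopoietic organs are known to be small. RNA was isolated from the spleen tissue, so fewer cells of a type and less RNA per cell cannot be told apart.

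The spleen filters blood, and in the mouse its red pulp also makes red cells throughout life. Its white pulp holds B and T lymphocytes, and a capsule and trabeculae of smooth muscle and fibrous tissue frame both. miRNAs are short RNAs that repress mRNAs through a match to their seed. Several serve as markers of one of these compartments, without being confined to it. miR-144 is known from red cell precursors, the miR-142 strands and miR-150 from leukocytes, and miR-143 and miR-145 from smooth muscle. The miR-17 cluster and the 2 clusters related to it are best known from dividing cells, including lymphocytes.

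The comparison turned on a few short RNAs. Their mature sequences, from RefSeq on build GRCm38.p6, are shown 5′ to 3′ with the seed, bases 2 to 8, in capitals. The first group was lower in klotho(-/-) spleen past the threshold.
miR-144: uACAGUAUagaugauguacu
miR-18: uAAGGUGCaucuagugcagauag
miR-106b: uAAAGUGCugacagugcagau
miR-20a: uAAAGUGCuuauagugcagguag
The next share the seed of miR-106b and miR-20a.
miR-93: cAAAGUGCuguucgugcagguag
miR-20b: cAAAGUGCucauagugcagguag
miR-106a: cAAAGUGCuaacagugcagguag
The last stand for the miR-15/16 seed, the leukocyte strands and the miR-29 seed.
miR-16: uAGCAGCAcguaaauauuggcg
miR-195: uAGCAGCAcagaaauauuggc
miR-142-3p: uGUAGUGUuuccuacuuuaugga
miR-142-5p: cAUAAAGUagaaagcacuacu
miR-29b: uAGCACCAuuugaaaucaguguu
miR-144 lies on chr11:78073047-78073066 (plus strand), outside any annotated host gene. miR-18 and miR-20a lie on chr14:115043867-115043889 and chr14:115044183-115044205 (plus strand) in the miR-17 cluster. miR-106b lies on chr5:138165787-138165807 (minus strand) inside Mcm7, which encodes a subunit of the replicative helicase. Edit distances between the printed sequences were 2 for miR-106a and miR-20b, 2 for miR-20a and miR-20b, 3 for miR-20a and miR-106a and 5 for miR-106b and miR-20a. How far such close sequences share a probe's signal was not tested, so the values of these members cannot be taken as independent.

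The spleen arrays were dim. The deposited signal is the background-subtracted intensity before any scaling. Its sum was 9448 and 7940 on klotho(-/-) spleens 1 and 2, against 12405 and 7317 on wild-type spleens 1 and 2, and 82 to 103 probes per array reached a signal of 10. A probe was tested where its mean normalised signal, the background-corrected intensity after the 4 arrays were scaled to one distribution, was at least 10, and 96 of the 200 probes were. The 2 klotho(-/-) arrays stood apart from each other. On the log2 scale, which is that of the normalised signal with 50 added and so draws dim probes toward 0, 29 of the 96 probes (30.2%) differed by over 0.5 between the klotho(-/-) arrays, against 6 (6.25%) between the wild-type arrays, and the median gap was 0.318 in the klotho(-/-) pair and 0.118 in the wild-type pair. In the 8 groups of the other tissues the median gap was 0.0647 to 0.105. The test therefore gave each group its own weight, and the SD of the klotho(-/-) spleen pair was 2.74 times the common one. Leukocyte miR-150 gave a deposited signal of at least 67 on every spleen array, and of at most 61 on the arrays of the other tissues. The miR-142 strands did not separate the arrays in this way. Their lowest deposited signal in spleen was 129 for miR-142-3p and 63 for miR-142-5p, against highest signals of 200 and 77 in the other tissues. For miR-155 the lowest in spleen was 8, against a highest of 7 in the other tissues. Hepatocyte miR-122a and the striated muscle miRNAs were at or near the background on all spleen arrays, with deposited signals summed over these 2 lists of 9 and 12 on klotho(-/-) spleen 1, 9 and 22 on klotho(-/-) spleen 2, 4 and 20 on wild-type spleen 1 and 4 and 13 on wild-type spleen 2.

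Between klotho(-/-) and wild-type spleens, 4 miRNAs fell and 0 rose. Of the 96 tested, 4.17% were called in limma with group weights at a Benjamini-Hochberg adjusted p of 0.05, and 24 had an unadjusted p below 0.05. miR-144, miR-18, miR-106b and miR-20a were the 4. The differences over all tested miRNAs were balanced, with 50 positive and 46 negative and a median of 0.05 on the log2 scale.

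miR-144, which is transcribed in red cell precursors, gave the largest difference of the tested miRNAs. Its normalised signal was 12.4 and 8.96 on klotho(-/-) spleens 1 and 2, against 191 and 409 on wild-type spleens 1 and 2. Both klotho(-/-) arrays were close to the minimum of 10 and both wild-type arrays far above it. The ratio of the means was 0.0357, and the log2 difference was -2.45 ± 0.50 (SE, n = 2 each, adjusted p = 0.00991 by limma). The deposited signal, before any scaling, was 12 and 13 in klotho(-/-) spleens, against 263 and 338 in wild-type spleens. miR-451, which is made from the same transcript, has no probe on the chip, so the erythroid list held miR-144 alone.

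The other 4 tissues enter a test given at the end. miR-144 had a deposited signal of 227 and 216 in klotho(-/-) lungs, against 165 and 107 in wild-type lungs, and of 47 and 62 in klotho(-/-) hearts, against 89 and 63 in wild-type hearts. In kidney it was 19 and 19 in klotho(-/-) mice, against 37 and 14 in wild-type mice, and in liver 13 and 9, against 5 and 6 in wild-type mice. These deposited signals were unscaled, and brightness differed between arrays, in liver also between genotypes (summed signals of 10784 and 7890 in klotho(-/-) livers, against 4162 and 5630 in wild-type livers), so they are given without a comparison. Blood reaches every tissue, and the part of red cells in these signals was not tested.

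miR-18, a member of the miR-17 cluster, had normalised signals of 14.6 and 10.1 in klotho(-/-) spleens, against 42.6 and 51.9 in wild-type spleens. Its log2 difference was -0.64 ± 0.10 (SE, n = 2 each, adjusted p = 0.00394 by limma). miR-106b, encoded in an intron of Mcm7, gave 28.9 and 44.0 in klotho(-/-) spleens, against 95.8 and 118 in wild-type spleens. That was a log2 difference of -0.86 ± 0.17 (adjusted p = 0.00991 by limma). miR-20a gave 83.8 and 118 in klotho(-/-) spleens, against 182 and 206 in wild-type spleens, a difference of -0.70 ± 0.17 (adjusted p = 0.0296 by limma). For each of these 3, every klotho(-/-) array lay below every wild-type array, before and after scaling. That held for 24% of all tested miRNAs before scaling and for 37.5% after it.

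Leaving out klotho(-/-) spleen 1 left only miR-18 among these 4 past the threshold (adjusted p = 0.0193 by limma), with -0.74 for miR-106b (0.0990), -2.45 for miR-144 (0.0594) and -0.50 for miR-20a (0.351). The klotho(-/-) side was then 1 array, whose spread was taken from the other groups, scaled by the weight of the full klotho(-/-) pair. Without wild-type spleen 2, miR-20a was at -0.65 (adjusted p = 0.0814 by limma).

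**Figure D1:**
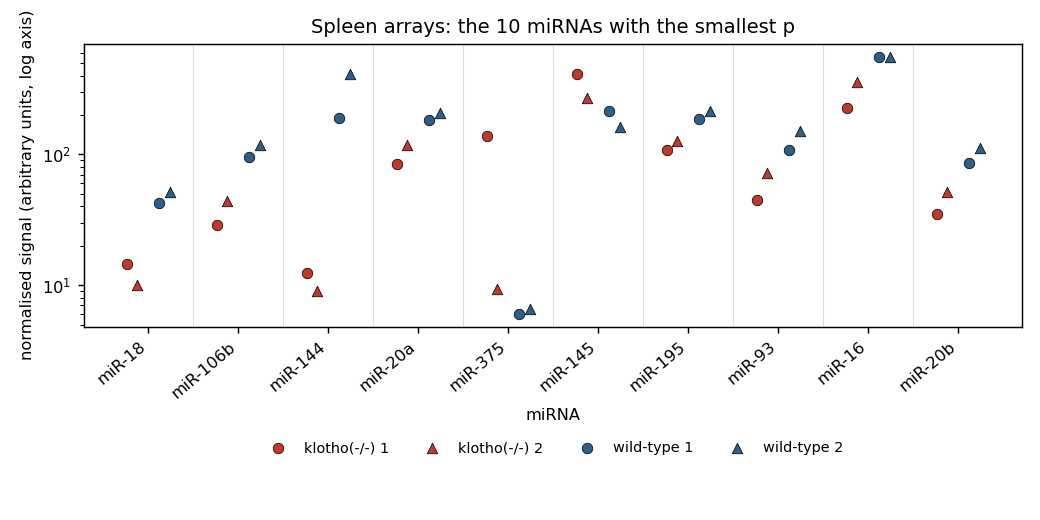
Normalised signal (arbitrary units, log axis) of the 10 miRNAs with the smallest p on each of the 4 arrays. Red symbols are klotho(-/-) arrays and blue symbols wild-type arrays, with circles for array 1 and triangles for array 2. In miR-144 the klotho(-/-) arrays lay at 12.4 and 8.96 and the wild-type arrays at 191 and 409, while miR-375 was at 139 on klotho(-/-) spleen 1 alone.

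The calls depended on how the spread was pooled. With equal weights, which take the klotho(-/-) pair to vary like the other groups, 7 were called higher (7.29%) and 22 lower (22.9%), together 30.2% of the tested. With the array number as a block, 2 were called higher and 11 lower. Scaling also moved the split, with 5 higher and 12 lower after median scaling and 4 higher and 12 lower with a common distribution over all 20 arrays. Fitted on the 4 spleen arrays alone 0 miRNAs passed, with 18 at an unadjusted p below 0.05. An exact permutation test of 2 against 2 arrays cannot go below p = 0.333.

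miRNAs of the miR-17 cluster and of its paralog clusters, which favour cell division where they have been studied, were low as a group. Of 12 members on the chip 11 were tested, miR-363 being too dim. All 11 had a negative difference and all 11 had both klotho(-/-) arrays below both wild-type arrays, while 37.5% of all tested miRNAs lay below in this way and 16.7% above. These counts are after scaling. The mean normalised signal of miR-17-3p was 9.47 in klotho(-/-) spleens, under the minimum of 10, against 16.6 in wild-type spleens. It was tested because of the wild-type arrays, so its direction was thereby set. In the deposited signal, where 24% of all tested miRNAs lay below, the arrays overlapped for miR-17-3p (6 and 15 in klotho(-/-) spleens, against 16 and 12 in wild-type spleens) and for miR-92 (27 and 49, against 102 and 49 in wild-type spleens). Of the 11, 3 fell past the threshold (miR-18, miR-106b and miR-20a) and 8 did not. The median difference of the list was -0.64, with a range of -0.86 to -0.16, against a median of 0.05 over all tested miRNAs. Both klotho(-/-) arrays were low, with list medians of -0.66 for spleen 1 and -0.55 for spleen 2 against the wild-type mean. With the array number as a block, miR-93 (adjusted p = 0.0180 by limma), miR-106a (0.0207), miR-20b (0.0363) and miR-19a (0.0449) passed as well. In that fit 11 of the 96 tested miRNAs were called lower. With equal weights 10 of the 11 list members were called lower, where 22.9% of all tested miRNAs were.

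Several members missed the threshold narrowly without the block. miR-93, from the Mcm7 intron, gave 45.1 and 72.1 in klotho(-/-) spleens, against 108 and 151 in wild-type spleens (-0.72 ± 0.21, adjusted p = 0.0560 by limma). miR-20b, from the paralog cluster on chromosome X, gave 35.2 and 51.2, against 86.5 and 111 in wild-type spleens (-0.67 ± 0.20, adjusted p = 0.0578 by limma). miR-106a, from the same cluster, gave 66.0 and 81.0, against 124 and 178 in wild-type spleens (-0.69 ± 0.22, adjusted p = 0.0642 by limma). The klotho(-/-) arrays lay below the wild-type arrays for each of these, as for 37.5% of all tested miRNAs after scaling.

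miR-25, also from the Mcm7 intron, was apart in spleen but had a wide error, since the model pools a probe's spread over all tissues. Its arrays gave 16.8 and 19.5 in klotho(-/-) spleens, against 49.4 and 53.8 in wild-type spleens. Its difference of -0.58 had an SE of 0.84 and an adjusted p of 0.683 by limma.

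By seed, the 5 tested miRNAs with the seed AAAGUGC had a median of -0.70 and a range of -0.86 to -0.67. By locus, the 6 tested members of the cluster at chr14:115043721-115044496 had a median of -0.49 (-0.70 to -0.16), the 3 at chr5:138165332-138165807 a median of -0.72 (-0.86 to -0.58) and the 4 at chrX:52741854-52742563 a median of -0.54 (-0.69 to -0.29). miR-19b and miR-92 are encoded at both the chromosome 14 and the X locus and were counted at each.

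The miR-15/16 family, whose seed AGCAGCA targets cell cycle regulators and Bcl2, had 6 tested members, all with negative differences, and 0 passed the threshold. With equal weights 4 were called lower, where 22.9% of all tested miRNAs were. With the array number as a block, where 11 of the 96 tested miRNAs were called lower, miR-195 (adjusted p = 0.0207 by limma) and miR-16 (0.0459) passed. The median was -0.61 and the range -0.86 to -0.01, and 4 had both klotho(-/-) arrays below both wild-type arrays after scaling, as had 37.5% of all tested miRNAs. The mean normalised signal of miR-424 was 9.6 in klotho(-/-) spleens, under the tested minimum, against 16.5 in wild-type spleens. This member was tested because of the wild-type arrays, so its direction was thereby set. miR-16 gave 228 and 355 in klotho(-/-) spleens, against 557 and 557 in wild-type spleens (-0.86 ± 0.26, adjusted p = 0.0578 by limma). It was the brightest probe on both wild-type arrays, so scaling gave it the same value on each. miR-195 gave 108 and 126 in klotho(-/-) spleens, against 187 and 215 in wild-type spleens (-0.59 ± 0.17, adjusted p = 0.0560 by limma), and miR-15a gave 105 and 139, against 206 and 221 in wild-type spleens (-0.62 ± 0.21, adjusted p = 0.0728 by limma). miR-497, which is encoded beside miR-195 on chromosome 11, gave 32.5 and 28 in klotho(-/-) spleens, against 35.2 and 26.4 in wild-type spleens (-0.01 ± 0.15). The difference between miR-195 and miR-497 was not tested.

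Of the 4 leukocyte miRNAs, 3 parted the 2 klotho(-/-) arrays by about 1 on the log2 scale, and miR-155 by 0.03. The list was miR-142-3p, miR-142-5p, miR-150 and miR-155, and 0 of the 4 passed. The miR-142 strands did with equal weights, where 22.9% of all tested miRNAs were called lower. With the array number as a block, where 11 of the 96 tested miRNAs were called lower, miR-142-5p did (adjusted p = 0.0459 by limma). miR-142-3p, from a locus active in all blood lineages, gave 133 and 309 in klotho(-/-) spleens, against 393 and 393 in wild-type spleens (-0.79 ± 0.32, adjusted p = 0.129 by limma). miR-142-5p, from the other strand of the hairpin, gave 69.7 and 187 in klotho(-/-) spleens, against 200 and 255 in wild-type spleens (-0.71 ± 0.23, adjusted p = 0.0658 by limma). Klotho(-/-) spleen 1 was far below the wild-type arrays for both strands and klotho(-/-) spleen 2 just below.

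miR-150, abundant in mature B and T lymphocytes, was at 72.1 and 200 in klotho(-/-) spleens, against 133 and 95.8 in wild-type spleens (0.10 ± 0.22, adjusted p = 0.775 by limma), so the 2 klotho(-/-) arrays lay on either side of the wild-type ones. miR-155, induced in activated lymphocytes, was dim, at 9.41 and 10.8 in klotho(-/-) spleens, against 26.1 and 10.3 in wild-type spleens. Summed over the 4, the deposited signal was 267 and 596 in klotho(-/-) spleens, against 986 and 592 in wild-type spleens. The miR-181 and miR-146 pairs, with roles in lymphocyte development and in limiting innate immune signals, had both klotho(-/-) arrays below both wild-type arrays in all 4 members after scaling, where 37.5% of all tested miRNAs did. The medians of the pairs were -0.23 and -0.22, with 0 calls, and in the deposited signal miR-181a, miR-146 and miR-146b overlapped.

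The smooth muscle, stromal and miR-29 lists had positive differences, none past the threshold in limma with group weights. miR-145 gave 409 and 272 in klotho(-/-) spleens, against 215 and 163 in wild-type spleens (0.69 ± 0.20, adjusted p = 0.0560 by limma). miR-143, from the same primary transcript, gave 557 and 409, against 272 and 246 in wild-type spleens (0.77 ± 0.33, adjusted p = 0.150 by limma). For both, each klotho(-/-) array was above each wild-type array after scaling, as for 16.7% of all tested miRNAs. In the deposited signal the arrays overlapped for both, and their sum was 1029 and 518 in klotho(-/-) spleens, against 616 and 316 in wild-type spleens. With the array number as a block, where 2 of the 96 tested miRNAs were called higher, miR-145 passed (adjusted p = 0.0180 by limma). Equal weights leave out the wider spread of the klotho(-/-) pair, and 7.29% of all tested miRNAs were then called higher. In that fit both passed, at adjusted p of 0.00172 for miR-145 and 0.00182 for miR-143 by limma.

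miR-29b, which represses collagens and other matrix genes, gave 191 and 163 in klotho(-/-) spleens, against 100 and 92.9 in wild-type spleens (0.63 ± 0.24, adjusted p = 0.101 by limma). miR-29a gave 221 and 215 in klotho(-/-) spleens, against 151 and 124 in wild-type spleens (0.52 ± 0.22, adjusted p = 0.144 by limma), and miR-29c gave 124 and 83.8, against 58.7 and 50.5 in wild-type spleens (0.54 ± 0.43, adjusted p = 0.474 by limma). All 3 had the klotho(-/-) arrays above the wild-type arrays on the normalised scale, where 16.7% of all tested miRNAs lay above, and all 3 overlapped in the deposited signal, where 3.12% lay above. With the array number as a block, where 2 of the 96 tested miRNAs were called higher, miR-29a passed (adjusted p = 0.0363 by limma). With equal weights, which leave out the wider spread of the klotho(-/-) pair, miR-29a (0.00114) and miR-29b (0.000196) did. In that fit 7.29% of all tested miRNAs were called higher.

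Among fibroblast miRNAs, miR-199a* was high on klotho(-/-) spleen 1 in particular, at 126 and 49.4 in klotho(-/-) spleens, against 38.2 and 35.2 in wild-type spleens (0.61 ± 0.19, adjusted p = 0.0642 by limma). The stromal list, miR-199a, miR-199a* and miR-21, had a median of 0.74 against the wild-type mean on klotho(-/-) spleen 1 and of 0.05 on klotho(-/-) spleen 2. The 5 miRNAs of the miR-23/27/24 clusters, known from endothelium and other stroma, had differences of 0.27 to 0.37, with 0 calls with group weights. After scaling 4 had both klotho(-/-) arrays above both wild-type arrays, where 16.7% of all tested miRNAs did, and in the deposited signal all 5 overlapped. Endothelial miR-126-3p overlapped before and after scaling. It gave 100 and 55.7 in klotho(-/-) spleens, against 62.2 and 55.7 in wild-type spleens (0.21 ± 0.17, adjusted p = 0.488 by limma).

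The let-7 family, found in most differentiated cells, had 4 positive and 4 negative members, a median of 0.02 and 0 calls. Its summed normalised signal was 2030 and 2180 in klotho(-/-) spleens, against 2140 and 1920 in wild-type spleens. The 5 tested members of the miR-30 family had a median of -0.03 and 0 calls.

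**Figure D2:**
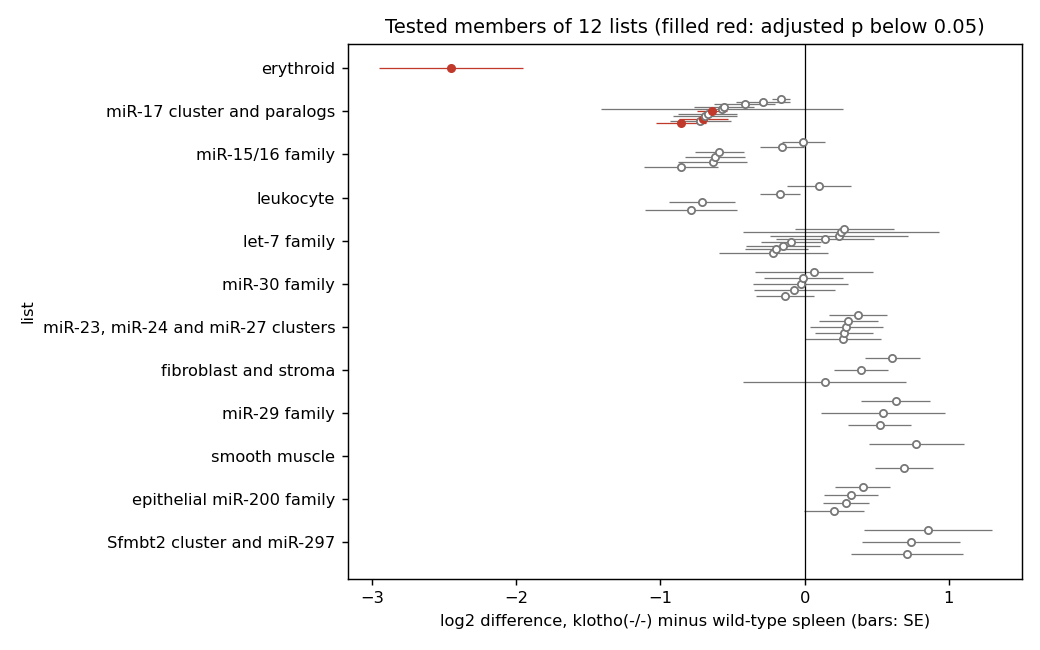
Log2 difference (klotho(-/-) minus wild-type spleen) of each tested member of 12 lists, 1 point per miRNA with its SE from limma. Filled red points passed the threshold: miR-144 at -2.45 in the erythroid list and 3 of the 11 members of the miR-17 list, all 11 of which lie left of 0, while the miR-29 and smooth muscle lists lie right of 0.

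The klotho(-/-) spleens parted most over 2 sets of miRNAs. The first set was bright on klotho(-/-) spleen 1. miR-375, a miRNA of pancreatic islets and other endocrine cells, was at 139 and 9.41 in klotho(-/-) spleens, against 6.05 and 6.62 in wild-type spleens. Since both wild-type arrays had deposited signals under 10, the ratio is a bound: the klotho(-/-) mean was at least 7.42-fold higher, with wild-type taken at the minimum of 10. That mean rests on 1 array. The log2 difference was 0.91 ± 0.26 (adjusted p = 0.0560 by limma). Only klotho(-/-) spleen 1 had a normalised signal above 10, so miR-375 was tested because of that array. Its direction was thereby set, and its p cannot be read as a difference of genotype. miR-216b, a miRNA of pancreatic acinar cells that was not tested because of its low mean, had deposited signals of 21 and 9 in klotho(-/-) spleens, against 3 and 4 in wild-type spleens. The pancreas lies beside the spleen.

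Of 6 epithelial probes, 5 were also highest on klotho(-/-) spleen 1. The exception, miR-192, was dim, with deposited signals of 4 and 4 in klotho(-/-) spleens, against 2 and 2 in wild-type spleens. miR-200b was at 51.2 and 2.69 in klotho(-/-) spleens, against 7.78 and 2.93 in wild-type spleens. miR-194, of liver and gut epithelium, was at 51.9 and 5.29, against 8.70 and 7.13 in wild-type spleens. The 4 members of the miR-200 family summed to deposited signals of 145 and 15 in klotho(-/-) spleens, against 23 and 10 in wild-type spleens, and the 3 pancreas probes to 163 and 26, against 17 and 17 in wild-type spleens. Of the pancreas sum on klotho(-/-) spleen 1, miR-375 made up 130, and miR-7, the third probe, had 12 and 4 in klotho(-/-) spleens, against 9 and 8 in wild-type spleens. The part of other tissue in klotho(-/-) spleen 1 was not tested. The same array had the lower miR-142 strands and the higher miR-199a* and miR-143 described above.

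The second set was bright on klotho(-/-) spleen 2. miR-297 was at 3.56 and 182 in klotho(-/-) spleens, against 3.85 and 20.5 in wild-type spleens. miR-669a and miR-669b, which lie in the large imprinted Sfmbt2 cluster, were at 5.29 and 133 and at 4.28 and 137 in klotho(-/-) spleens, against 7.41 and 13.3 and 6.81 and 17.2 in wild-type spleens. In each, array 2 was the higher of both genotypes, but by 1.73 to 2.12 on the log2 scale in klotho(-/-) spleens and by 0.14 to 0.39 in wild-type spleens. miR-207 (4.11 and 75.8 in klotho(-/-) spleens, against 3.05 and 13.7 in wild-type spleens) and miR-328 (3.70 and 71.0, against 11.7 and 23.6 in wild-type spleens) followed the same pattern. None of them passed in the comparison of genotypes.

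**Figure D3:**
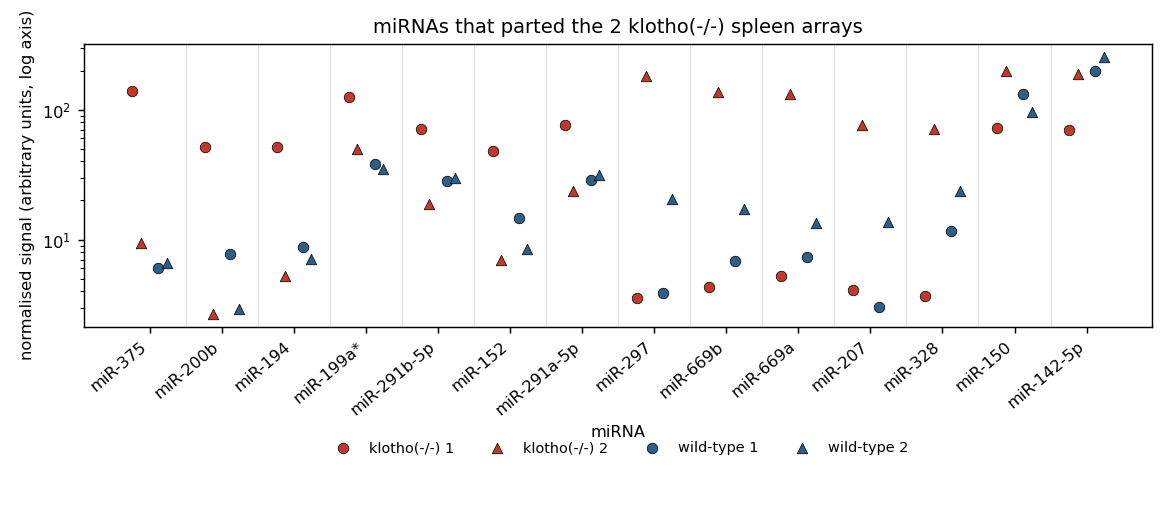
Normalised signal (arbitrary units, log axis) of 14 miRNAs on which the klotho(-/-) arrays differed most, 7 higher on array 1 and 7 higher on array 2. Red is klotho(-/-), blue is wild-type, circles are array 1 and triangles array 2, and miR-375 reached 139 on klotho(-/-) spleen 1 and miR-297 reached 182 on klotho(-/-) spleen 2.

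**Figure D4:**
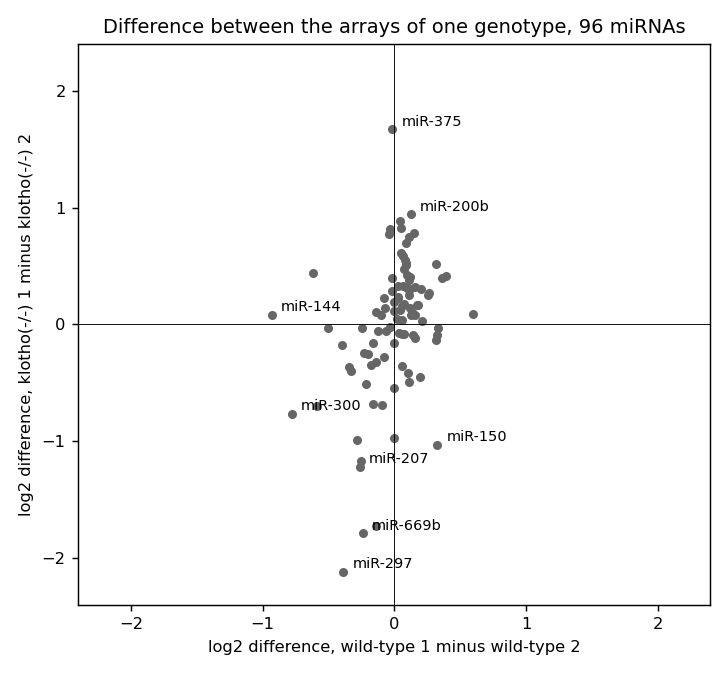
Difference on the log2 scale between the 2 klotho(-/-) arrays (vertical axis) and the 2 wild-type arrays (horizontal axis) for the 96 tested miRNAs, 1 point each. The klotho(-/-) pair spreads further along its axis, with 29 of 96 miRNAs over 0.5 apart against 6 of 96 in the wild-type pair.

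Finally, the difference in spleen was set against the mean difference in lung, liver, kidney and heart, in the same model. Of the 96 miRNAs 3 differed, or 3.12%, and all 3 had the more negative difference in spleen. For miR-144 the spleen difference minus the mean of the others was -2.39 ± 0.51 (adjusted p = 0.0162 by limma), with differences of 0.19 in lung, 0.04 in liver, -0.21 in kidney and -0.26 in heart. miR-106b was at -0.82 ± 0.18 (adjusted p = 0.0162 by limma) and miR-18 at -0.61 ± 0.11 (adjusted p = 0.00833 by limma), with mean differences in the other 4 tissues of -0.04 each. Some of these tissues had little signal to lose: miR-18 was under the tested minimum in liver, where its deposited signal was 3 and 4 in wild-type mice, and gave 13 and 13 in wild-type kidney and 13 and 9 in wild-type heart. miR-144 was under the minimum in liver too, with 5 and 6 in wild-type mice. miR-106b was tested in liver but dim there, with 7 and 10 in wild-type mice. With 50 added before log2, differences at such levels are drawn toward 0. For all 3 the test thus partly sets spleen against tissue where a fall could hardly show, for miR-144 and miR-106b in liver. miR-20a was at -0.67 ± 0.17 (adjusted p = 0.0513 by limma).

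For the miR-29 family this test called 0 of 3. The spleen difference minus the mean of the others was 0.03 ± 0.24 for miR-29b (adjusted p = 0.969 by limma), where the other tissues averaged 0.60, and 0.02 ± 0.22 for miR-29a, where they averaged 0.50. miR-29c was at 0.25 ± 0.44, where the other tissues averaged 0.29, with -0.14 in kidney. The model takes the tissues of one mouse as independent.

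**Figure D5:**
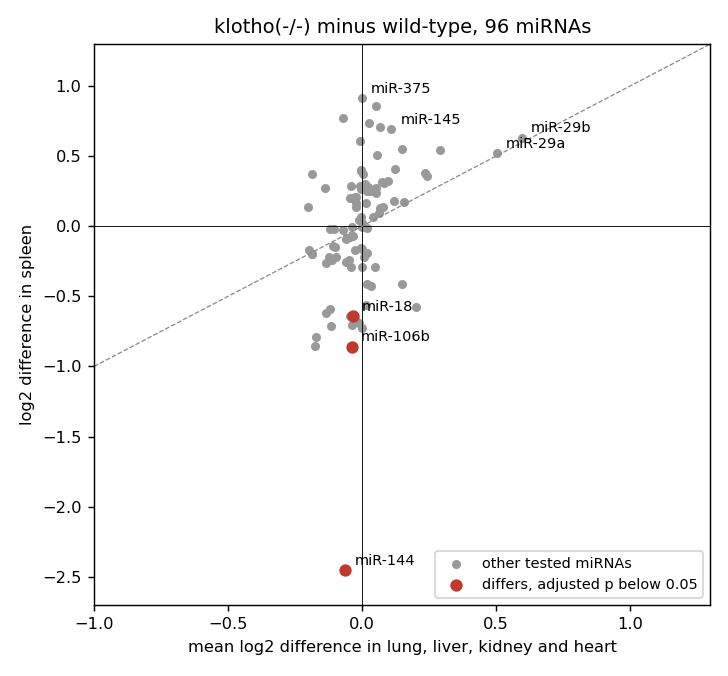
Log2 difference of klotho(-/-) minus wild-type in spleen (vertical axis) against the mean of that difference in lung, liver, kidney and heart (horizontal axis), 1 point per tested miRNA, with equal values on the dashed line. The 3 red points (miR-144 at -2.45, miR-106b at -0.86 and miR-18 at -0.64 in spleen) lay near 0 in the other tissues, and miR-29a and miR-29b lay close to the line.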

How the data were processed

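Small RNA of each tissue was labelled with 1 dye and hybridized to the chip. The authors deposited 2 tables of intensity, 1 without background subtraction and 1 with a constant of 18.8 to 21.3 per spleen array taken off, rounded to whole numbers and unscaled (called deposited signal). No fold changes of the authors were used. From the first table, background was corrected with normexp (offset 50), the 4 arrays of a tissue were quantile-normalised and log2 was taken with the offset kept. After quantile normalisation probes of equal rank have equal values. One limma model over 20 arrays and 10 groups gave each group 1 weight (arrayWeights, prior number 10) and tested 96 spleen probes by eBayes with trend, with Benjamini-Hochberg adjustment at 0.05 and 10 residual degrees of freedom. R 4.3.3 and limma 3.58.1 were used. The steps were tested on simulated data. Same-numbered arrays of both genotypes tended to deviate in the same direction from their group means, weakly in heart and lung. The correlation over probes was 0.371 for spleen, 0.126 for heart, 0.475 for kidney, 0.536 for liver and 0.249 for lung. The study's tables set klotho(-/-) against wild-type within each of 2 experiments, numbered 1 and 2. What mice of one number share is not stated. The main fit has no block for the number, and the fit with the number as a block is given beside the calls it changes. Where an array was left out, the lone array of its group kept the weight of the full pair and took its spread from the remaining groups.

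Named were up to 15 called miRNAs in each direction, the 10 smallest p where fewer than 5 passed, up to 10 by p against the other tissues, up to 10 in each direction between the klotho(-/-) arrays, and list members. The members and lists were chosen with earlier results of these data known. Of 96 tested probes 82 were matched to RefSeq mature sequences, the arm being assigned by hand from the probe's miRBase accession. Alternatives covered weights, scaling, offset, filter, blocks, the second table and each array left out. Only 2 arrays per group limit the precision.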

Additional observations from a re-analysis of the deposited data

Results flagged for a closer look

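3 miRNAs differed between klotho(-/-) and wild-type mice more in spleen than in the other 4 tissues by a test of the difference itself. The difference in spleen minus the mean difference in lung, liver, kidney and heart was -0.61 for miR-18, -2.39 for miR-144 and -0.82 for miR-106b on the log2 scale, with adjusted p of 0.00833, 0.0162 and 0.0162 by limma. In liver, and for miR-18 also in kidney and heart, all 3 had little signal to lose, so their differences there are drawn toward 0 by the scale. All 3 were lower on each klotho(-/-) spleen array than on each wild-type spleen array, as were 37.5% of all tested miRNAs after scaling and 24% in the deposited signal.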

How the results depend on the processing

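The count of miRNAs called in spleen was 4, and 3 for the difference from the other tissues. The counts were 29 and 21 with equal weights, 17 and 13 with median scaling and 16 and 8 with quantile normalisation over all 20 arrays. No scaling gave 11 for the difference from other tissues. An offset of 100 gave 12 spleen calls and a minimum mean of 30 gave 15. The spleen arrays alone and the methods' Student's test each gave 0 calls, with 18 and 12 at an unadjusted p below 0.05. With the replicate number as a block the counts were 13 and 6. Leaving out each spleen array gave 4 to 17 spleen calls and 4 to 14 for the difference, the highest without klotho(-/-) spleen 2. Without wild-type spleen 1 the counts were 9 and 7. Without klotho(-/-) spleen 1 there were 3 higher and 1 lower. The cause of these shifts was not tested.

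miR-497 turned positive with median scaling (0.20) and no scaling (0.084), and ran from -0.083 to 0.060 as arrays were left out, positive without klotho(-/-) spleen 2 (0.03) or wild-type spleen 1. miR-150 turned negative with no scaling (-0.14), and ran from -0.44 without klotho(-/-) spleen 2 to 0.59, negative also without wild-type spleen 2 (-0.07). The miR-30 median turned positive with median scaling (0.067) and quantile normalisation over all arrays (0.014), and ran from -0.19 to 0.14, positive without klotho(-/-) spleen 2. The let-7 median turned negative with no scaling (-0.091), and ran from -0.073 without wild-type spleen 2 to 0.021, negative also without klotho(-/-) spleen 1 (-0.0017). No other direction among the 44 named miRNAs turned in the alternatives where they were tested. Without klotho(-/-) spleen 1, miR-375 and the miR-200 family fell under the minimum signal, and without klotho(-/-) spleen 2, miR-297, miR-669a and miR-669b did. On the klotho(-/-) array that remained, the miR-200 family was at -0.07 to -0.02 against the wild-type mean. miR-297, miR-669a and miR-669b were at -0.20 to -0.12 and miR-375 at 0.08. miR-20a lost its call with no scaling (-0.95, adjusted p = 0.0548 by limma), with a larger difference than the -0.70 reported. It also lost the call with an offset of 16 (-0.86, adjusted p = 0.0636 by limma). A smaller offset stretches log2 differences, so that value cannot be set against the -0.70.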

Other observations

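miR-300, from the imprinted Dlk1-Dio3 cluster, followed the array number and not the genotype, with normalised signals of 1.97 and 38.2 in klotho(-/-) spleens 1 and 2, against 2.06 and 39.5 in wild-type spleens 1 and 2. miR-298 was also higher on array 2 in both genotypes, and higher in klotho(-/-) spleen within each number, with 42.6 and 100 in klotho(-/-) spleens, against 22.3 and 58.7 in wild-type spleens (adjusted p = 0.562 between genotypes by limma).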
